A study of Rattus norvegicus with 54 samples.

Results

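Hoxa11, Wt1, Nr2f2 and Cited1 are transcription regulators with roles in the patterning of the urogenital tract. Their probe sets were taken by gene symbol from the authors' deposited lists of selected probe sets and followed through every array of the value table. They are 4 of the 2844 genes, and 4 of the 3008 probe sets, to which those lists give a single symbol, and each is measured by 1 probe set. The study measured RNA of the fetal rat gubernaculum, the ligament that anchors the testis and takes part in its descent, and of the fetal testis on 54 single-colour Affymetrix arrays. LE/orl is the cryptorchid strain of the series and LE/wt is its wildtype strain. An array carried RNA from an organ of a single fetus, and the labels name no agent and no altered gene for either strain.

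In gubernaculum, the groups were left gubernacula of LE/orl and LE/wt males at gestational day (GD) 18, GD19 and GD20, with 4 fetuses for each strain and day, and right gubernacula of 3 LE/orl and 3 LE/wt males at GD20. A further group held 4 LE/wt females at GD18, in which the left and right gubernacula of a fetus had been combined. In testis, the groups were left testes of 5 LE/orl and 5 LE/wt fetuses at GD17 and of 5 LE/orl and 5 LE/wt fetuses at GD19. Gubernaculum RNA was labelled with a kit that has an additional round of amplification, so no level was set against a level in testis. Values are the authors' log2 expression values, and differences are tested at a Benjamini-Hochberg adjusted p under 0.05 (limma) over all tested probe sets of a tissue.

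Hoxa11 is a homeobox factor of the posterior Hox genes, which set identity along the reproductive tract and limb, and loss of Hoxa11 disturbs testicular descent in mice. Wt1 is a zinc finger factor required for the formation of gonad and kidney and is a marker of the coelomic lining and of mesenchyme derived from it. Nr2f2 (COUP-TFII) is an orphan nuclear receptor of mesenchymal and interstitial cells, including precursors of Leydig cells, and Cited1 is a transcriptional co-activator without a DNA-binding domain of its own, known from nephron progenitors.

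The Hoxa11 gene lies at chr4:82673139-82676801 of the rat assembly GRCr8, Wt1 at chr3:112019721-112068454, Nr2f2 at chr1:133419161-133434290 and Cited1 at chrX:71390328-71395023, all per RefSeq. The lists give the Hoxa11 probe set as RGD1566402, titled as similar to a homeobox protein, and RefSeq holds that name as a synonym of Hoxa11. The same RefSeq record also lists Hoxa10 as a synonym, so the Hoxa11 values carry an uncertainty about which posterior Hoxa transcript the probes detect. The annotation grade given in the lists is E for the Wt1 probe set and A for the other 3. Hoxa11, Wt1 and Cited1 have a name here because the authors selected them in gubernaculum, and Nr2f2 because they selected it in testis, on these same arrays. A call of such a gene in that tissue is therefore not independent evidence.

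RefSeq promoter windows of GRCr8 were available for 3 of the 4 genes. The windows of Hoxa11 and Cited1, in which a motif was found, are shown as the 250 bases before the start, on the gene's strand. Capitals mark the motifs found.
Hoxa11, chr4:82676802-82677051, minus strand: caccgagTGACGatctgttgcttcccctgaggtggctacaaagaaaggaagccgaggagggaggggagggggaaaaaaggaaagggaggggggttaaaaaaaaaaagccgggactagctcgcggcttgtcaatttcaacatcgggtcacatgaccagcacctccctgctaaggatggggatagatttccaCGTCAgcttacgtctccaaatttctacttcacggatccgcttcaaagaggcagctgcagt
Cited1, chrX:71395024-71395273, minus strand: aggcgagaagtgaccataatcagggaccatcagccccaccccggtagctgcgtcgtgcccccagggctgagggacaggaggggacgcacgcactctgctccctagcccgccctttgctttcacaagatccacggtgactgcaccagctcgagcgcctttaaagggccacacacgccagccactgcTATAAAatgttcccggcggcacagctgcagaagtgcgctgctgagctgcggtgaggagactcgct
Both strands were searched for a nuclear receptor site of the letters AGGTCA, for a core bound by Wt1 and Egr factors with the letters GCGTGGG, for a TATA box spelled TATAAA, for the CCAAT box, and for the short cyclic AMP response site TGACG, and no match overlapped another. TGACG was found in the Hoxa11 window at -243, and on the opposite strand at -60, and in 18.2% of 33469 promoter windows of that length. TATAAA was found in the Cited1 window at -65 and in 12.9% of all windows. The nuclear receptor site, the Wt1 and Egr core and the CCAAT box were not in the windows of Hoxa11, Wt1 or Cited1 and were in 14.1%, 3.68% and 34.0% of all windows. The windows held 11 CG pairs for Hoxa11, 27 for Wt1 and 16 for Cited1, against a median of 5 over all windows. The Wt1 window, chr3:112021759-112022008 on the plus strand, lies within the gene span given above and not directly before it.

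All 4 genes passed the minimum of 5 on the log2 scale in at least 3 gubernaculum arrays, among 8872 probe sets that did. In testis, 3 of the 4 passed it in at least 5 arrays, among 8013 probe sets. Hoxa11 lay between 2.29 and 2.45 in all 20 testis arrays and was not tested there. Pearson correlations between arrays of a group ran over all probe sets from 0.865 to 0.990 in gubernaculum and from 0.978 to 0.992 in testis. Control probe sets at both ends of the beta-actin and GAPDH transcripts give a 5′ to 3′ index, the mean log2 difference between the 5′ and the 3′ set, which is more negative where the 5′ end gave less signal. It lay between -7.23 and -6.06 in 13 of the 15 LE/orl gubernaculum arrays, against -4.73 to -3.46 in the 19 LE/wt gubernaculum arrays. The other 2 LE/orl arrays, replicate A of GD18 and replicate D of GD19, had -4.16 and -4.32, and the authors' group means leave them out. In testis it ran from -1.53 to -0.999 in LE/orl and from -1.45 to -1.07 in LE/wt. Since the index differed between the strains in gubernaculum, the strain results of the 4 genes there are given with the values of those 2 arrays and with the index as a covariate. The model also held a mean for each group, so the covariate drew on differences in index among arrays of a group. These were widest in the groups of those 2 arrays. Covariate results and the values of those arrays are therefore not separate evidence. The strain results of the marker and patterning lists are given without that covariate.

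Between the strains, Cited1 was lower in LE/orl gubernaculum on every day and both sides, by 3.33-fold to 7.09-fold. Hoxa11 was lower in LE/orl at GD20, by 4.36-fold on the left and 5.09-fold on the right. Nr2f2 was higher in LE/orl left gubernaculum at GD18 and GD20, by 1.90-fold and 2.27-fold, and Wt1 at GD19, by 1.53-fold. The test called 2 of the 4 genes at GD18, where it called 51.3% of all tested probe sets, and 2 of 4 at GD19, where it called 52.5%. At GD20 it called 3 of 4 on the left and 2 of 4 on the right, where it called 47.0% and 38.4% of all. By their labels the right and left arrays of that day share fetus letters within a strain, so the sides may not be independent. Over the mean of the 3 left-side days the test called 4 of 4, against 68.5% of all. These are bulk tissues, so fewer cells of a type and less RNA per cell cannot be told apart.

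**Figure D1:**
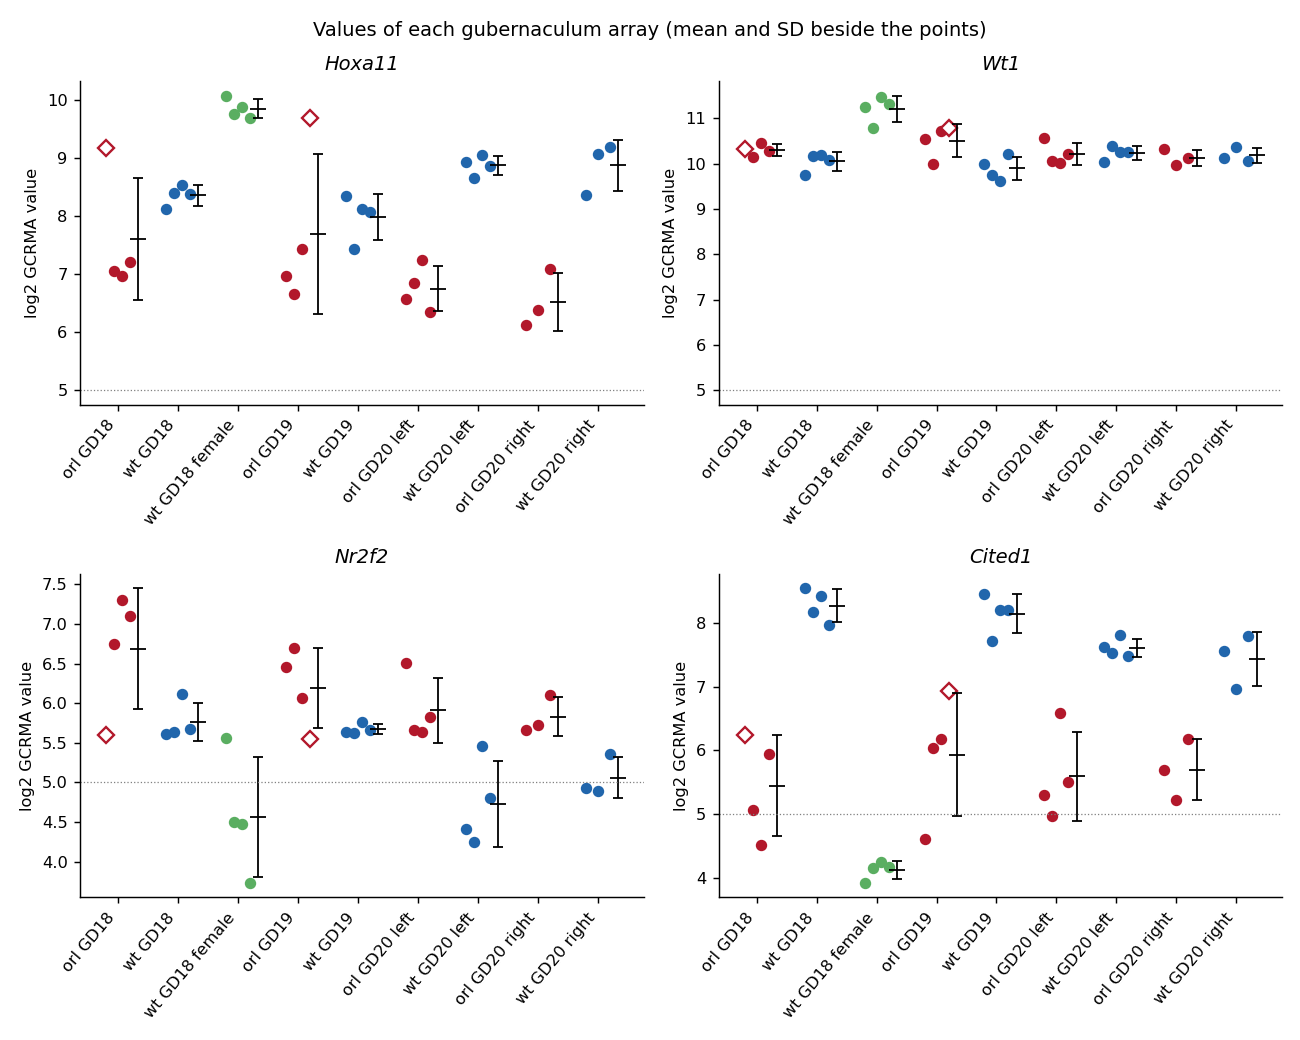
Log2 GCRMA values (y axis) of Hoxa11, Wt1, Nr2f2 and Cited1 in each gubernaculum array by group (x axis), with the mean and SD beside the points and a dotted line at the minimum of 5. Red is LE/orl males, blue LE/wt males and green LE/wt females, and open diamonds are the 2 LE/orl arrays left out of the authors' means. Cited1 separates the LE/orl from the LE/wt males in all 4 pairs of groups, and the female group has the highest mean for Hoxa11 and Wt1 and the lowest for Cited1.

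Hoxa11 had log2 values of 9.18, 7.05, 6.97 and 7.21 in LE/orl left gubernacula at GD18 (replicates A to D), against 8.11, 8.39, 8.53 and 8.39 in LE/wt. At GD19 it had 6.96, 6.66, 7.43 and 9.69 in LE/orl, against 8.34, 7.42, 8.11 and 8.07 in LE/wt. On both days a single LE/orl array, A of GD18 and D of GD19, lay above every LE/wt array, while the remaining LE/orl arrays lay below the LE/wt arrays, except that LE/orl replicate C of GD19 was level with LE/wt replicate B. Those are the 2 arrays with an index in the LE/wt range. With them in, the difference was -0.75 at GD18 (SE 0.44, adjusted p = 0.16) and -0.30 at GD19 (SE 0.44, adjusted p = 0.591), and neither was called. Adjusted for the index it was 0.89 at GD18 (adjusted p = 0.113), in the opposite direction, and 1.44 at GD19 (adjusted p = 0.0134), where Hoxa11 was called higher in LE/orl. Without both arrays, it was called at -1.28 at GD18 (adjusted p = 5.5e-05) and -0.97 at GD19 (adjusted p = 0.00121). In the authors' deposited table, the LE/orl means of the Hoxa11 probe set are 135 at GD18 and 133 at GD19 on the linear intensity scale, against LE/wt means of 329 and 261.

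At GD20, Hoxa11 had 6.57, 6.84, 7.24 and 6.34 in LE/orl left gubernacula, against 8.92, 8.66, 9.05 and 8.87 in LE/wt. On the right it had 6.12, 6.37 and 7.08 in LE/orl, against 8.36, 9.06 and 9.18 in LE/wt. The strains did not overlap on either side. Hoxa11 fell by 2.12 in LE/orl on the left (SE 0.44, adjusted p = 0.000375) and fell by 2.35 on the right (SE 0.51, adjusted p = 0.00104) on the log2 scale. Every LE/orl array of GD20 had an index below the LE/wt range, so strain and index cannot be told apart on that day. With the index as a covariate the differences were -0.14 (adjusted p = 0.956) and -0.28 (adjusted p = 0.978). That fit called 46 probe sets on the left and 41 on the right, against 4174 and 3404 without the covariate.

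Over the 3 left-side days, the mean strain difference of Hoxa11 was -1.06 (SE 0.26, adjusted p = 0.000626), and -1.46 (SE 0.14, adjusted p = 2.03e-10) without the 2 arrays that the authors leave out. It was 0.73 with the index as a covariate (adjusted p = 0.154), in the opposite direction and not called. When the LE/orl arrays of GD18 and GD19 were divided by the index, the 2 arrays within the LE/wt range were higher than the 8 LE/wt arrays, by 1.26 (SE 0.24, adjusted p = 0.000608). The 6 arrays below that range were lower than LE/wt, by -1.12 as a difference (SE 0.17, adjusted p = 1.6e-05). The direction of the Hoxa11 strain difference in these days thus followed which LE/orl arrays were used, and the contrast of the 2 sets of LE/orl arrays was -2.39 (SE 0.25, adjusted p = 2.05e-06). These 3 contrasts called 45.8%, 69.1% and 37.7% of all tested probe sets.

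**Figure D2:**
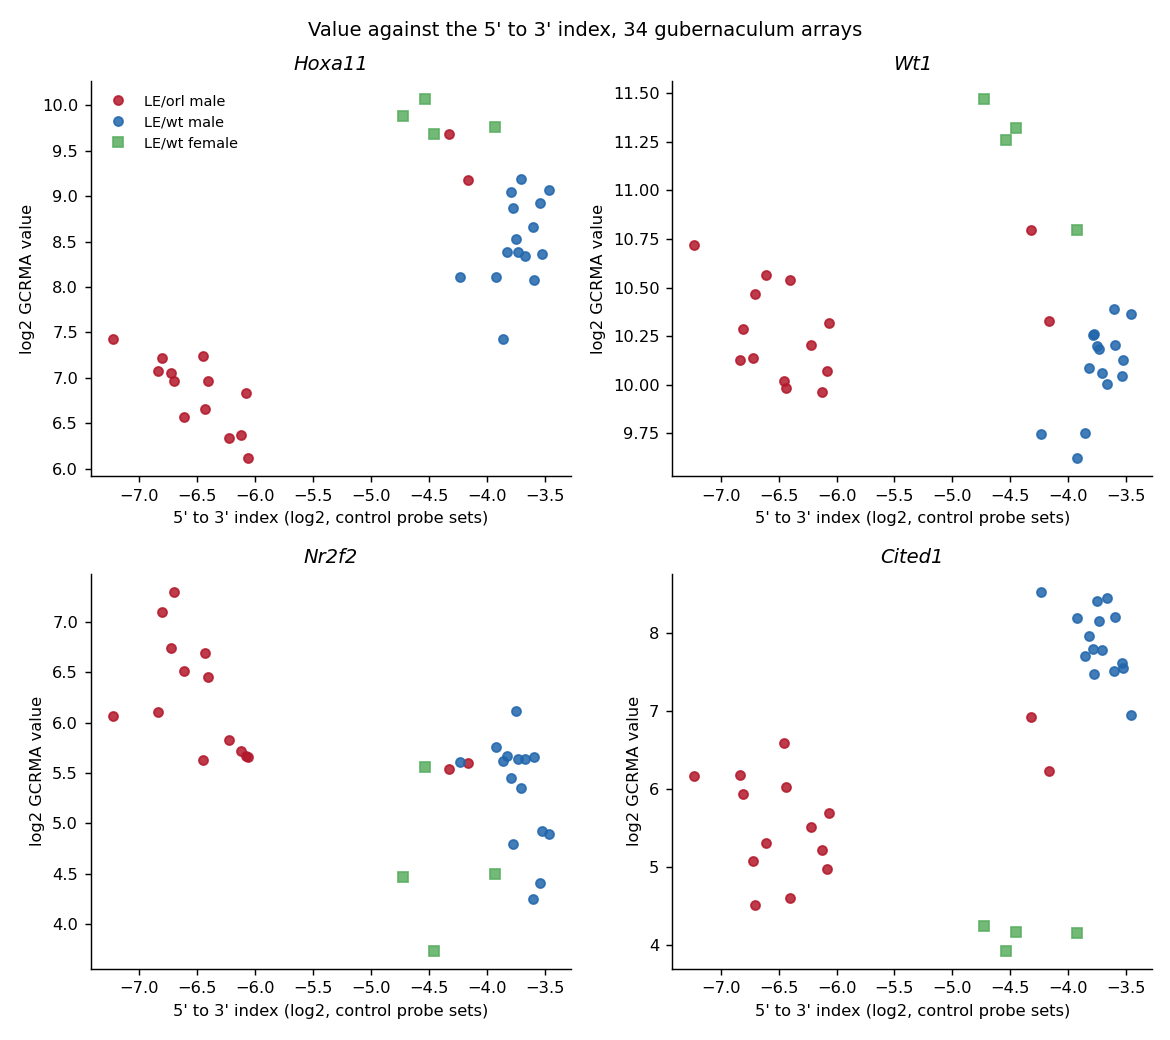
Log2 GCRMA value (y axis) of Hoxa11, Wt1, Nr2f2 and Cited1 against the 5′ to 3′ index of the array (x axis, log2) in 34 gubernaculum arrays, with LE/orl males in red, LE/wt males in blue and LE/wt females as green squares. The 13 LE/orl arrays at an index of -6.06 or below lie between 6.12 and 7.43 for Hoxa11, the 2 LE/orl arrays at -4.32 and -4.16 lie with the LE/wt arrays on the index axis, and in the Cited1 panel every LE/orl array is below every LE/wt male array.

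Wt1 had 10.33, 10.14, 10.47 and 10.29 in LE/orl left gubernacula at GD18, against 9.74, 10.18, 10.20 and 10.08 in LE/wt. At GD19 it had 10.54, 9.98, 10.72 and 10.79 in LE/orl, against 10.00, 9.75, 9.62 and 10.20 in LE/wt. At GD19, 3 of the 4 LE/orl arrays were above all LE/wt arrays, and the strains overlapped through LE/orl replicate B. Wt1 rose in LE/orl at GD19 by 0.61 (SE 0.18, adjusted p = 0.00476), while at GD18 the difference was 0.25 (SE 0.18, adjusted p = 0.235). The index-adjusted difference was 0.34 at GD18 (adjusted p = 0.309) and 0.70 at GD19 (adjusted p = 0.0327). The GD19 call was lost when only the groups compared were fitted (adjusted p = 0.0633) and with array weights (adjusted p = 0.0676).

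At GD20, Wt1 had 10.56, 10.07, 10.02 and 10.21 in LE/orl left gubernacula, against 10.04, 10.39, 10.25 and 10.26 in LE/wt. On the right it had 10.32, 9.96 and 10.13 in LE/orl, against 10.13, 10.37 and 10.06 in LE/wt. The strains overlapped on both sides, with differences of -0.02 on the left (SE 0.18, adjusted p = 0.924) and -0.05 on the right (SE 0.20, adjusted p = 0.868). Adjusted for the index, the left and right differences were 0.08 (adjusted p = 0.961) and 0.05 (adjusted p = 0.994). The mean over the 3 left-side days was 0.28 (SE 0.10, adjusted p = 0.016), a fold of 1.21, and it was not called with array weights (0.16, adjusted p = 0.108) or with the index as a covariate (0.37, adjusted p = 0.21). At GD18 and GD19, Wt1 was higher than in LE/wt both in the 2 LE/orl arrays within the LE/wt index range (0.59, adjusted p = 0.0327) and in the 6 below it (0.38, adjusted p = 0.0279). These 2 sets of LE/orl arrays differed by -0.21, which was not called (adjusted p = 0.479).

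Podxl encodes podocalyxin and was the only named gene of 7 listed mesothelium markers. It was called higher in LE/orl at GD18, where Wt1 was not called, and at GD19, where Wt1 was. The linear intensity of Podxl ran from 541.9 to 796.9 in LE/orl and from 339.5 to 411.7 in LE/wt at GD18. At GD19 it ran from 483.0 to 1356.7 in LE/orl and from 347.4 to 401.9 in LE/wt. At GD20 the strains overlapped on both sides, and the log2 differences of 0.61 on the left and 0.36 on the right were not called. Over the mean of the 3 left-side days, Podxl rose in LE/orl by 0.79 on the log2 scale (SE 0.15, adjusted p = 5.58e-05). Its part in the Wt1 difference was not tested.

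Nr2f2 had 5.60, 6.75, 7.30 and 7.10 in LE/orl left gubernacula at GD18, against 5.61, 5.64, 6.11 and 5.67 in LE/wt. At GD19 it had 6.45, 6.69, 6.07 and 5.55 in LE/orl, against 5.64, 5.62, 5.76 and 5.66 in LE/wt. On each day, 3 LE/orl arrays were above all LE/wt arrays. The array below them, A of GD18 or D of GD19, was one of the 2 with an index in the LE/wt range and lay below the lowest LE/wt array. Nr2f2 rose in LE/orl at GD18 by 0.93 (SE 0.33, adjusted p = 0.0204), a call lost without LE/orl replicate C (0.72, adjusted p = 0.0933), without LE/orl replicate D (0.79, adjusted p = 0.0709) or with only the groups compared in the fit (adjusted p = 0.0546). At GD19 the difference was 0.52 (SE 0.33, adjusted p = 0.193), and it was called without the 2 arrays left out by the authors (0.73, adjusted p = 0.0379). Fitted with the index, the difference was -0.04 at GD18 (adjusted p = 0.955) and -0.50 at GD19 (adjusted p = 0.339), in the opposite direction and not called.

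At GD20, Nr2f2 had 6.51, 5.67, 5.63 and 5.82 in LE/orl left gubernacula, against 4.41, 4.25, 5.46 and 4.80 in LE/wt. On the right it had 5.66, 5.72 and 6.11 in LE/orl, against 4.93, 4.89 and 5.35 in LE/wt. The strains did not overlap on either side, and most LE/wt values lay under the minimum of 5. Nr2f2 rose in LE/orl on the left by 1.18 (SE 0.33, adjusted p = 0.00476), and the difference on the right was 0.77 (SE 0.38, adjusted p = 0.11), which was called when only the groups compared were fitted (adjusted p = 0.0251). With the index as a covariate the difference was 0.02 on the left (adjusted p = 0.995) and -0.44 on the right (adjusted p = 0.921), and neither was called. Strain and index cannot be told apart at GD20, where few probe sets were called with the covariate (46 on the left and 41 on the right).

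The mean strain difference of Nr2f2 over the 3 left-side days was 0.88 (SE 0.19, adjusted p = 0.000205). It was 1.07 (adjusted p = 2.43e-06) without the 2 arrays left out by the authors, and -0.17 (adjusted p = 0.746) with the index as a covariate. At GD18 and GD19, the 2 LE/orl arrays within the LE/wt index range differed from LE/wt by -0.14 (SE 0.21, adjusted p = 0.614), and the 6 arrays below that range were higher by 1.01 (adjusted p = 1.05e-05). The contrast of these 2 sets of LE/orl arrays was 1.15 (adjusted p = 0.000581).

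Cited1 had 6.24, 5.07, 4.52 and 5.94 in LE/orl left gubernacula at GD18, against 8.54, 8.16, 8.42 and 7.96 in LE/wt. At GD19 it had 4.61, 6.03, 6.18 and 6.92 in LE/orl, against 8.45, 7.71, 8.20 and 8.21 in LE/wt. The strains did not overlap on either day. The highest LE/orl array was again A at GD18 and D at GD19, but here both were below every LE/wt array. Cited1 fell by 2.83 in LE/orl at GD18 (SE 0.37, adjusted p = 5.76e-07) and fell by 2.21 at GD19 (SE 0.37, adjusted p = 1.8e-05). Both were also called with the index as a covariate, at -2.19 (adjusted p = 0.00131) and -1.53 (adjusted p = 0.0196).

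At GD20, Cited1 had 5.31, 4.97, 6.59 and 5.51 in LE/orl left gubernacula, against 7.62, 7.52, 7.80 and 7.48 in LE/wt. On the right it had 5.69, 5.22 and 6.18 in LE/orl, against 7.56, 6.96 and 7.79 in LE/wt. Again no LE/orl array reached the lowest LE/wt array. Cited1 fell by 2.01 in LE/orl on the left (SE 0.37, adjusted p = 0.000109) and fell by 1.74 on the right (SE 0.43, adjusted p = 0.00263). With the index as a covariate these differences were -1.24 (adjusted p = 0.405) and -0.93 (adjusted p = 0.811). No LE/orl array of GD20 had an index in the LE/wt range, so strain and index cannot be told apart here either. The covariate left 46 probe sets called on the left and 41 on the right, of 8872 tested.

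Cited1 had a mean strain difference over the 3 left-side days of -2.35 (SE 0.21, adjusted p = 2.51e-10), which is 5.09-fold lower in LE/orl. With the index as a covariate it was -1.65 (SE 0.42, adjusted p = 0.00608) and still called. At GD18 and GD19, Cited1 was lower than in LE/wt both in the 2 LE/orl arrays within the LE/wt index range, at -1.63 (adjusted p = 0.00264), and in the 6 below it, at -2.81 (adjusted p = 7.94e-08). The 6 arrays were lower than the 2 by a further difference of -1.19 (adjusted p = 0.0253). In the authors' deposited table, the LE/orl means of Cited1 are 39, 54 and 53 at GD18, GD19 and GD20 (both sides) on the linear intensity scale, against LE/wt means of 312, 287 and 188.

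**Figure D3:**
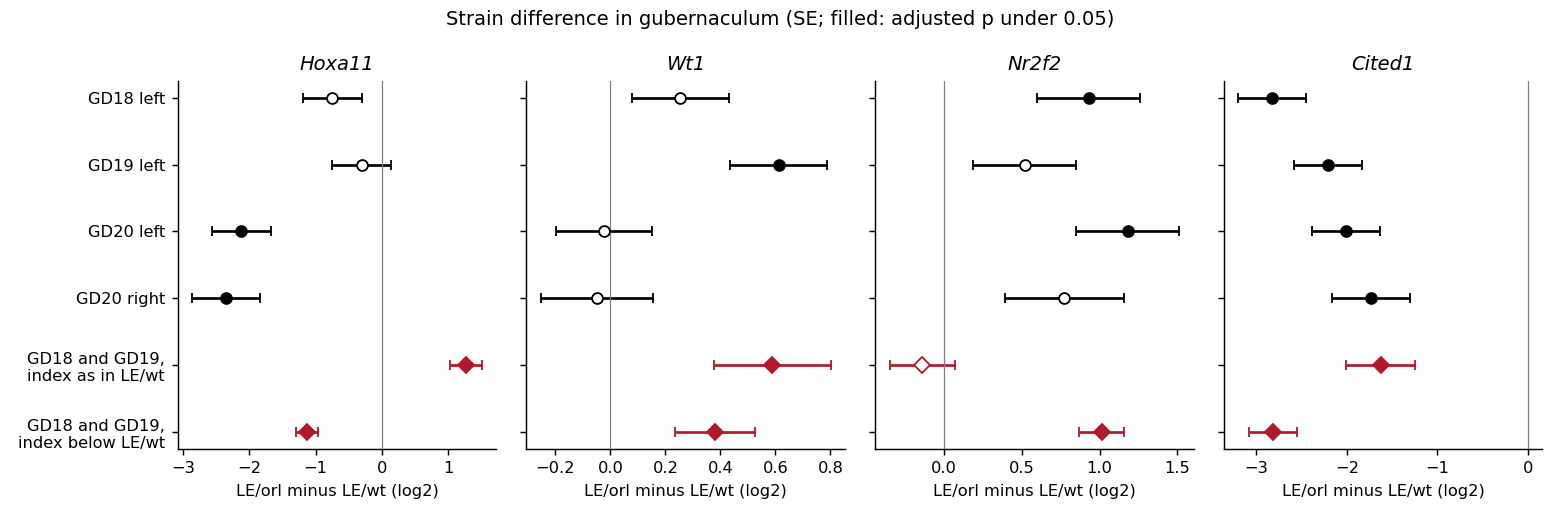
LE/orl minus LE/wt difference (x axis, log2, with SE bars) of Hoxa11, Wt1, Nr2f2 and Cited1 at each gubernaculum day and side (y axis, black circles), and for LE/orl arrays of GD18 and GD19 with the 5′ to 3′ index in or below the LE/wt range (red diamonds). Filled symbols have an adjusted p under 0.05. The panels have different x axes. Cited1 is lower in LE/orl in all 6 contrasts shown, while Hoxa11 is higher (1.26) in the LE/orl arrays with an index in the LE/wt range and lower (-1.12) in those below it.

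Markers of other cell types also differed between the strains and the sexes. Like the members, these markers have a name only because the authors selected them on these arrays. A call in the tissue of selection is not independent evidence. The summed intensity of the 9 striated muscle markers ran from 26749.7 to 28791.5 in LE/orl and from 31131.6 to 45378.5 in LE/wt left gubernacula at GD18. It overlapped at GD19, with 35476.5 to 51339.5 in LE/orl and 42578.3 to 60954.6 in LE/wt, and on the left at GD20, with 44256.8 to 70148.7 in LE/orl and 57340.6 to 72389.8 in LE/wt. Over the mean of the 3 left-side days, 7 of the 9 were called lower and 1 higher, with a median log2 difference of -0.74. That contrast called 68.5% of all tested probe sets.

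The 3 named smooth muscle markers (Acta2, Tagln and Myl9) summed to 584.4 to 2428.3 in LE/orl and 2587.0 to 4672.6 in LE/wt at GD18, and did not overlap at GD19 or on the left at GD20 either. All 3 were called lower in LE/orl over the mean of the days, against 68.5% of all tested probe sets, with a median of -1.62. Of the 3, 2 were called higher in males than in females, against 53.1% of all, with a median of 2.15. These are the directions of Cited1 in both comparisons, but they were not particular to smooth muscle. Of the 9 striated muscle markers, 4 were called higher and 1 lower in males, against 53.1% of all tested probe sets, with a median of 0.64. C1qc, the only named macrophage marker, ran from 4.5 to 15.4 in LE/orl and from 94.4 to 237.0 in LE/wt at GD18. Its mean strain difference was -3.04 on the log2 scale. The LE/orl arrays of GD18, and the left arrays of both strains at GD20, were under the minimum of 5 on that scale. The size of the C1qc difference is therefore uncertain, and it was not called at GD20 on either side. Of the 2 named neuron markers (Uchl1 and Stmn2), 1 was called lower in LE/orl over the mean of the days and both higher in males. The 2 endothelium markers (Cdh5 and Lyve1) were called in opposite directions between the strains, and of the 2 red cell markers (Hbe1 and Car1) 1 was called lower in LE/orl.

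The 5 named fibroblast markers (Col1a1, Col1a2, Col3a1, Dcn and Pdgfra) summed to 53266.8 to 61270.7 in LE/orl and 37537.6 to 43774.6 in LE/wt at GD18. Over the mean of the days, 2 of the 5 were called higher and 1 lower, against 68.5% of all tested probe sets. At GD20 on the left the fibroblast sums overlapped, with 61260.7 to 73495.8 in LE/orl and 61332.7 to 65398.6 in LE/wt. The part of these cell types in the differences of Hoxa11, Wt1, Nr2f2 and Cited1 was not tested.

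Between the sexes at GD18, Cited1 and Nr2f2 were higher, and Hoxa11 and Wt1 lower, in the gubernaculum of LE/wt males than of LE/wt females. The test called all 4 genes, where it called 53.1% of all tested probe sets, and none of the 4 overlapped between the sexes, which was so for 54.6% of all tested probe sets. The female arrays held both sides and the male arrays the left side, so sex and the combined sides cannot be told apart. The index ran from -4.23 to -3.73 in males and from -4.73 to -3.93 in females, with 3 of the 4 female arrays below every male array. All 4 genes were called in the same directions with the index as a covariate.

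Cited1 had 8.54, 8.16, 8.42 and 7.96 in males, against 3.93, 4.15, 4.25 and 4.17 in females. All 4 female arrays were under the minimum of 5, in the range of low values of the table. The measured male minus female difference was 4.14 (SE 0.37, adjusted p = 6.48e-10). With the female arrays set to the minimum of 5, Cited1 was at least 9.64-fold higher in males. The female group was the lowest of the 9 gubernaculum groups for Cited1 and overlapped none of the others.

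Nr2f2 had 5.61, 5.64, 6.11 and 5.67 in males, against 5.57, 4.50, 4.47 and 3.74 in females. The highest female array lay just under the lowest male array, and the other female arrays were below 5. The difference was 1.19 (SE 0.33, adjusted p = 0.00346), and 1.42 with the index as a covariate (adjusted p = 0.000101).

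Hoxa11 had 8.11, 8.39, 8.53 and 8.39 in males, against 10.07, 9.76, 9.88 and 9.69 in females. Wt1 had 9.74, 10.18, 10.20 and 10.08 in males, against 11.26, 10.80, 11.47 and 11.32 in females. For both genes every female array was above every male array of that day, and the female group had the highest mean of the 9 groups. The male minus female difference was -1.49 for Hoxa11 (SE 0.44, adjusted p = 0.00584) and -1.16 for Wt1 (SE 0.18, adjusted p = 3.41e-06). Podxl was also lower in males, at 339.5 to 411.7 intensity units against 890.4 to 1368.4 in females, with a log2 difference of -1.54 (adjusted p = 2.15e-05), and its part in the Wt1 difference was not tested.

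Over gestation in LE/wt left gubernaculum, Nr2f2 fell by GD20, and the other 3 genes were not called. No member was called between GD19 and GD18, where 0.237% of all tested probe sets were. Between GD20 and GD19, 1 of the 4 genes was called, against 39.8% of all, and between GD20 and GD18 again 1 of 4, against 44.7% of all. Nr2f2 fell by 0.94 at GD20 relative to GD19 (SE 0.33, adjusted p = 0.0241) and fell by 1.03 relative to GD18 (SE 0.33, adjusted p = 0.0126). The first call was lost without GD20 replicate A (adjusted p = 0.0728) or B (adjusted p = 0.0886), and the second without GD20 replicate B (adjusted p = 0.0525).

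Cited1 differed by -0.66 at GD20 relative to GD18 (SE 0.37, adjusted p = 0.149), although all 4 GD20 arrays were below all 4 GD18 arrays. Hoxa11 differed by 0.88 at GD20 relative to GD19 (SE 0.44, adjusted p = 0.115), with all GD20 arrays above all GD19 arrays, and by 0.52 relative to GD18 (adjusted p = 0.358). When only the 2 days compared were fitted, these Cited1 and Hoxa11 differences were called. Wt1 differed by 0.34 at GD20 relative to GD19 (adjusted p = 0.124), and the days overlapped.

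In LE/orl left gubernaculum no member was called between GD20 and GD18, where 6.39% of all tested probe sets were. Nr2f2 differed by -0.78 (adjusted p = 0.182) and Hoxa11 by -0.85 (adjusted p = 0.301). Without GD18 replicate A, the Nr2f2 difference was called at -1.14 (adjusted p = 0.0308). Whether the strain difference changed between GD18 and GD20 was tested directly. The change was called for none of the 4 genes, against 27.8% of all probe sets. It was -1.37 for Hoxa11 (SE 0.63, adjusted p = 0.101), 0.82 for Cited1 (SE 0.52, adjusted p = 0.254), 0.25 for Nr2f2 (adjusted p = 0.729) and -0.28 for Wt1 (adjusted p = 0.433).

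Right and left gubernacula at GD20 gave no call for any of the 4 genes in either strain. The test called 0.0% of all probe sets in each, and 424 probe sets in LE/orl and 19 in LE/wt had an unadjusted p under 0.05. The right minus left differences were -0.23 in LE/orl and 0.00 in LE/wt for Hoxa11, and -0.08 in LE/orl and 0.33 in LE/wt for Nr2f2. For Cited1 they were 0.10 in LE/orl and -0.17 in LE/wt, and for Wt1 -0.08 and -0.05. The standard errors of these differences ran from 0.19 for Wt1 to 0.48 for Hoxa11, so differences of this size or somewhat larger could be missed with 3 right and 4 left arrays. The fit did not pair the sides, although the labels give both the same fetus letters.

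Ordered by group mean in gubernaculum, Hoxa11 was highest in LE/wt females at GD18 (9.85 ± 0.17, SD, n = 4), followed by the LE/wt males on the left at GD20 (8.87 ± 0.16, n = 4), and lowest in LE/orl on the right at GD20 (6.52 ± 0.50, n = 3). Only the step below the females had no overlap between neighbours in that order, although LE/orl replicate D of GD19 (9.69) reached the lowest female array (9.69). Wt1 kept a narrow order below the females (11.21 ± 0.29, n = 4), with the 8 male groups between means of 10.51 in LE/orl at GD19 and 9.90 in LE/wt at GD19 and each overlapping the next. Nr2f2 was highest in the 4 LE/orl groups, led by GD18 (6.69 ± 0.76, n = 4), and lowest in the females (4.57 ± 0.75, n = 4), with neighbouring groups overlapping except between LE/wt at GD19 and LE/wt on the right at GD20. Cited1 formed 3 levels without overlap between them. These were the LE/wt males, with group means of 7.43 to 8.27, the LE/orl males, with 5.44 to 5.93, and the LE/wt females, with 4.12.

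In testis, Nr2f2 was lower in LE/orl at GD17, and Wt1 and Cited1 were not called between the strains on either day. The test called 1 of the 3 tested genes at GD17, against 18.5% of all probe sets, and none at GD19, against 13.3%. Nr2f2 had 7.13, 7.60, 7.74, 7.41 and 7.55 in LE/orl at GD17, against 8.17, 7.72, 8.29, 8.14 and 8.28 in LE/wt. All LE/orl arrays lay below all LE/wt arrays but replicate B, which was lower than the highest LE/orl array. Nr2f2 fell by 0.64 in LE/orl (SE 0.11, adjusted p = 0.000378), a 1.55-fold lower value.

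At GD19, Nr2f2 had 8.01, 8.01, 7.94, 7.94 and 8.18 in LE/orl testes, against 8.26, 8.34, 8.16, 8.23 and 8.41 in LE/wt. The strains overlapped through LE/orl replicate E, and the difference of -0.26 (SE 0.11, adjusted p = 0.121) was not called. With the index as a covariate it was called, at -0.35 (adjusted p = 0.0382). Between the days, Nr2f2 rose by 0.53 at GD19 relative to GD17 in LE/orl (SE 0.11, adjusted p = 0.000331), where the days did not overlap and 1 of the 3 genes was called, against 55.6% of all probe sets. In LE/wt the day difference was 0.16 (adjusted p = 0.254), and none of the 3 was called, against 41.6% of all. The change of the strain difference between the days was 0.37 (SE 0.15, adjusted p = 0.126) and was not called for any of the 3 genes, against 9.65% of all probe sets. It was called for Nr2f2 without LE/wt GD17 replicate B (0.47, adjusted p = 0.0309).

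**Figure D4:**
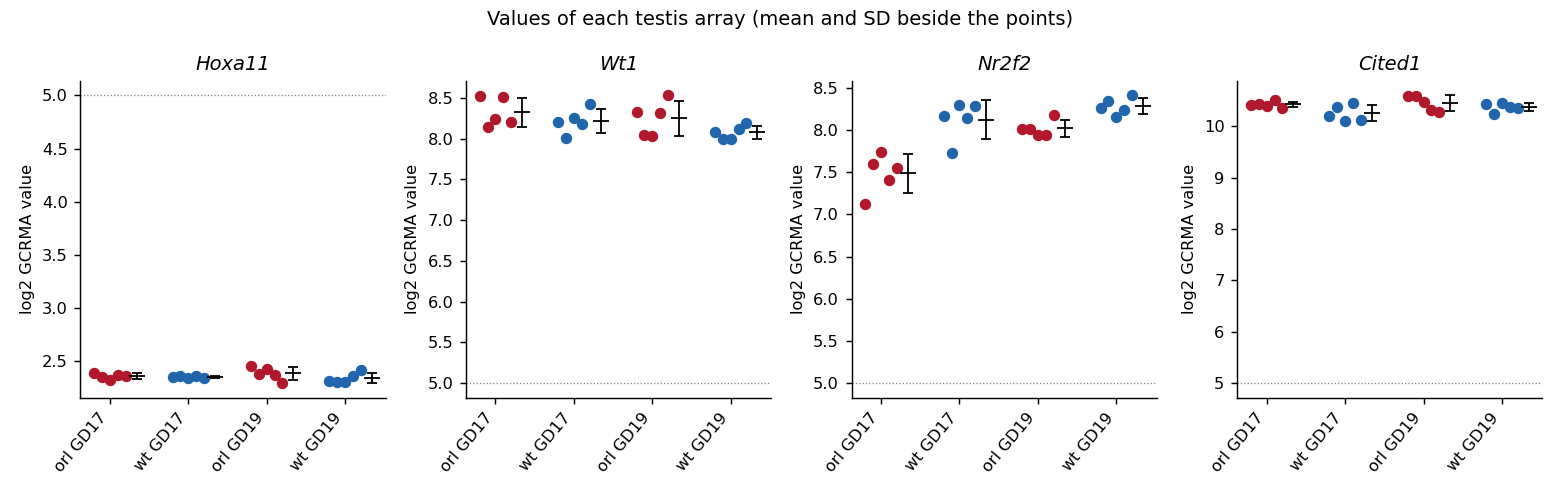
Log2 GCRMA values (y axis, with a separate scale in each panel) of Hoxa11, Wt1, Nr2f2 and Cited1 in each testis array by strain and day (x axis), with the mean and SD beside the points and a dotted line at the minimum of 5. Red is LE/orl and blue LE/wt, with 5 arrays in each group. Nr2f2 in LE/orl at GD17 is the lowest group of its panel, and every Hoxa11 value is between 2.29 and 2.45.

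Markers of other testis cells were compared beside Nr2f2. They too have a name only because the authors selected them on these arrays, so a call in the tissue of selection is not independent evidence. The 5 named fibroblast markers summed to 6741.9 to 8595.0 intensity units in LE/orl and 10079.3 to 12865.7 in LE/wt at GD17, and to 16608.9 to 19305.9 in LE/orl and 16591.0 to 18812.2 in LE/wt at GD19. All 5 were called lower in LE/orl at GD17, against 18.5% of all probe sets, with a median difference of -0.67. None was called at GD19, against 13.3% of all. Relative to GD17 all 5 were called higher at GD19 in both strains, with medians of 1.26 in LE/orl and 0.63 in LE/wt. Of all probe sets, 55.6% were called between the days in LE/orl and 41.6% in LE/wt. Lhcgr, the luteinizing hormone receptor and the only one of 6 listed Leydig cell markers among the named genes, ran from 126.7 to 189.0 in LE/orl and 298.8 to 427.6 in LE/wt at GD17, and was called lower in LE/orl on both days. At GD17, 2 of the 3 smooth muscle markers and the only tested endothelium marker were also called lower in LE/orl. In the other direction, the only tested neuron marker was called higher in LE/orl at GD17 (0.45) and GD19 (0.43). Of the 2 red cell markers, 1 was called higher in LE/orl at GD17. Podxl and the 2 tested striated muscle markers were not called between the strains on either day. None of the listed Sertoli cell or germ cell markers was among the named genes. The part of these cell types in the Nr2f2 difference was not tested.

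Wt1 had 8.52, 8.14, 8.24, 8.50 and 8.20 in LE/orl testes at GD17, against 8.20, 8.01, 8.25, 8.18 and 8.42 in LE/wt. At GD19 it had 8.32, 8.05, 8.03, 8.31 and 8.53 in LE/orl, against 8.09, 8.00, 7.99, 8.11 and 8.19 in LE/wt. The strains overlapped on both days, with differences of 0.11 (SE 0.10, adjusted p = 0.489) at GD17 and 0.17 (SE 0.10, adjusted p = 0.302) at GD19.

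Cited1 had 10.42, 10.43, 10.40, 10.51 and 10.36 in LE/orl testes at GD17, against 10.20, 10.38, 10.10, 10.45 and 10.12 in LE/wt. At GD19 it had 10.59, 10.59, 10.47, 10.32 and 10.27 in LE/orl, against 10.43, 10.25, 10.46, 10.37 and 10.36 in LE/wt. The strains overlapped on both days, and the differences were 0.17 (SE 0.08, adjusted p = 0.14) at GD17 and 0.08 (SE 0.08, adjusted p = 0.582) at GD19. The strain differences of Cited1 in gubernaculum and in testis come from separate fits, and the difference between them was not tested. Neither Wt1 nor Cited1 was called between the days in either strain.

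Across the 34 gubernaculum arrays, the named genes whose values were most like Hoxa11 were Ssrp1, a subunit of a histone chaperone (Pearson r = 0.965), Clta, a clathrin light chain (0.956), and Gtf3c6 (0.950), out of 2982 probe sets. Their deviations from the group means correlated with those of Hoxa11 at 0.903, 0.899 and 0.888. Hoxa11 itself lay farthest from its group mean in the 2 LE/orl arrays with an index in the LE/wt range. For Cited1 the most alike were MGC108778 (0.914), Serpinf1 (0.912) and Pnoc, the precursor of nociceptin (0.896), and for Nr2f2 they were Fbn2, which encodes fibrillin-2 (0.843), Edg2 (0.826) and the zinc finger homeobox gene Zfhx4 (0.819). Wt1 was most like Mb21d2 (0.876), Champ1 (0.875) and LOC688133 (0.868). Deviations from the group means correlated less closely here, at 0.506 to 0.671 between Cited1 and its 3 genes. They correlated at 0.532 to 0.692 between Nr2f2 and its 3 and at 0.412 to 0.688 between Wt1 and its 3. Among the members themselves, r was -0.67 between Hoxa11 and Nr2f2, 0.48 between Hoxa11 and Wt1, 0.13 between Hoxa11 and Cited1 and -0.65 between Wt1 and Cited1. For deviations from the group means, r of these pairs was -0.42, 0.28, 0.63 and -0.03 in the same order. The arrays share strain, sex and index groups, and these values describe the arrays only.

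Across the 20 testis arrays and 2699 probe sets, Nr2f2 was most like Lrp1, a lipoprotein receptor (0.909), Daam1, a formin (0.895), and Vcan, the matrix proteoglycan versican (0.887). The closest genes to Wt1 were C1d (0.750), Marchf5 (0.730) and Mfn2 (0.718), and the closest to Cited1 were MGC72957 (0.748), Lamtor5 (0.731) and Psmc3 (0.704). Deviations from the group means correlated at 0.704 to 0.839 between Wt1 and its 3 genes, at 0.524 to 0.759 between Cited1 and its 3 and at 0.448 to 0.655 between Nr2f2 and its 3.

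A list for urogenital patterning held 94 other genes, which were regulators, signals and some markers. Of these, 14 were among the named genes and all 14 were tested in gubernaculum. The 14 include the marker genes Vim and Podxl, the latter also given above as a mesothelium marker. Over the mean of the 3 left-side days, 6 of the 14 were called higher and 4 lower in LE/orl, where 68.5% of all tested probe sets were called, with a median difference of 0.03 against 0.01 for all tested probe sets. The transcription inhibitor Id3 fell by 4.49 (SE 0.43, adjusted p = 7.17e-10), the bone morphogenetic protein Bmp7 fell by 1.06 (SE 0.11, adjusted p = 1.24e-09) and the intermediate filament gene Vim fell by 0.77 (SE 0.08, adjusted p = 5.44e-09). The growth factor receptor Fgfr2 rose by 1.39 (adjusted p = 6.76e-08) and the homeobox gene Msx1 by 1.37 (adjusted p = 9.89e-08), and Igf1 differed by -0.04 (adjusted p = 0.808).

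Between the sexes, 8 of the 14 were called higher and 4 lower in males, where 53.1% of all were called, with a median difference of 1.13 against -0.06 for all. Igf1 was higher in males by 2.12 (adjusted p = 3.95e-08), Msx1 by 2.08 (adjusted p = 2.02e-06), Bmp7 by 1.38 (adjusted p = 4.41e-07) and Vim by 1.04 (adjusted p = 8.24e-07), and Fgfr2 was lower at -1.13 (adjusted p = 0.00249). Between GD20 and GD18 in LE/wt, 2 of the 14 were called higher and 11 lower, where 44.7% of all were called, with a median of -1.03 against 0.02 for all, and the growth factor Igf1 fell by 2.08 (adjusted p = 9.57e-08). In testis, 10 of the 14 were tested. At GD17 2 of the 10 were called, against 18.5% of all, of which Bmp7 was higher (0.39, adjusted p = 0.0231) and Igf1 lower (-0.61, adjusted p = 0.0176) in LE/orl. Like the 4 members, these genes have a name only because the authors selected them on these arrays.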

How the data were processed

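RNA of fetal organs was measured on 54 arrays. The authors deposited their values on the log2 scale, and the submitters' processing notes name GCRMA. The sources used here do not say which arrays were normalised as a set. Lists of probe sets selected by the authors on these arrays (3589 for gubernaculum, 1023 for LE/wt gubernaculum and 349 for testis) carry group means as deposited linear intensity values and served for names and for a check of the means. Older symbols were updated through RefSeq synonyms of GRCr8.

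A single limma model for each tissue (limma 3.58.1, R 4.3.3) held all its groups, with 25 residual degrees of freedom in gubernaculum and 16 in testis. Control probe sets were left out, and the others had to reach 5 on the log2 scale in 3 or more gubernaculum arrays or 5 or more testis arrays. Benjamini-Hochberg adjustment ran over all tested probe sets of a contrast. The script was tested on simulated data. Differences are LE/orl minus LE/wt, male minus female, later minus earlier day and right minus left. The number of arrays limits the precision. Within a group the labels name separate fetuses, and they name no litters.

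The members and the gene lists were chosen with earlier results of these data known. Likeness is the Pearson r over the arrays of a tissue among the named genes, of which the 3 highest are given. Of the patterning list, the 6 genes with the lowest p in the mean strain or sex contrast are named with values. Replicate letters do not pair the strains (correlations of deviations between same-letter arrays of -0.231 to 0.246). The labels give the left and right GD20 arrays of a strain the same fetus letters, and same-letter sides correlated at 0.187 to 0.549 in LE/orl but at -0.347 to 0.353 in LE/wt, where arrays of different letters reached 0.435. Alternatives were the minimum value, the groups in the fit, array weights, the index as a covariate, a replicate block and leaving out each array.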

Additional observations from a re-analysis of the deposited data

Results flagged for a closer look

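In 3 of 44 groups of values of a member, a single array stood apart from the rest of its group by Dixon's criterion at 95%, where chance gives about 1 in 20. Hoxa11 in LE/orl GD18 left gubernaculum replicate A was 9.18, above the other 3 arrays of the group at 6.97 to 7.21. Nr2f2 in LE/wt GD18 left gubernaculum replicate C was 6.11, above the others at 5.61 to 5.67. Nr2f2 in LE/wt GD17 testis replicate B was 7.72, below the others at 8.14 to 8.29.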

How the results depend on the processing

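With the index as a covariate, the mean strain difference over the left-side days was 0.73 for Hoxa11 and -0.17 for Nr2f2, against -1.06 and 0.88 without it, Wt1 kept its direction at 0.37 without a call, and Cited1 was called. At single days it gave -0.036 for Nr2f2 at GD18 (adjusted p = 0.955) and 1.44 for Hoxa11 at GD19 (adjusted p = 0.0134). In the 2 LE/orl arrays of GD18 and GD19 with an index in the LE/wt range, Hoxa11 differed by 1.26 and Nr2f2 by -0.14. With array weights the mean difference of Wt1 was 0.16. The covariate moved the count of called probe sets to 2692 at GD18, 2850 at GD19, 46 at GD20 on the left, 41 on the right and 1861 for the mean. In testis it gave 663 at GD17 and 100 for the change with day, and it gave 40 for GD19 against GD18 in LE/wt gubernaculum. Array weights gave 5324 on the right at GD20, 3769 for the change with day in gubernaculum and 1200 in testis, 109 for GD19 against GD18 in LE/wt, and 3 in LE/orl and 14 in LE/wt between the sides. Without a minimum value, 9581 were called between the sexes, 36 between GD19 and GD18 in LE/wt and 1 between the sides in LE/orl. For GD19 against GD18 in LE/wt, a minimum of 7 gave 8, only the groups compared gave 2, and leaving out the 2 arrays of the authors' means gave 48, against 21. Leaving out 1 array each gave 11 to 25 there and 0 to 1 between the sides in LE/orl. Only the groups compared gave 115 between GD20 and GD18 in LE/orl, against 567. The cause of these changes was not tested. Among member differences, leaving out 1 array gave the same call in 667 cases, a gained call in 4 and a lost call in 5, with no change of direction among called results. The other settings gave the same call in 684 cases, a gained call in 21, a lost call in 10 and a reversed direction in 6. With the replicate block, which the letters do not justify between strains, Nr2f2 at GD18 was 0.93 (adjusted p = 0.0218), and no call of a member changed, nor with the replicate block by fetus for the GD20 sides. Values near 5, as for Nr2f2 and for Cited1 in females, lie in the low range of the table.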
